A study of Mus musculus with 3 samples.

Results

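Complement is a set of proteins that tag targets for removal and signal to immune cells. In the classical pathway C1q, built from the products of C1qa, C1qb and C1qc, binds a target and starts the cleavage of C4 and C2, which leads to cleavage of C3. C3a and C5a, fragments released on the way, act through the receptors encoded by C3ar1 and C5ar1, and Serping1 encodes the C1 inhibitor, which blocks the proteases of C1. Within tissues macrophages are a known source of C1q, and fibroblasts and glia are known to transcribe other components.

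The complement genes described here were the 9 genes C1qa, C1qb, C1qc, C2, C3, C4b, C3ar1, C5ar1 and Serping1, chosen by name among 31053 genes, and all 9 had a row. They were measured in single cells of dorsal root ganglia (DRGs) in 3 libraries, 1 each from naïve mice, mice 7 days after spared nerve injury (SNI) and mice 14 days after SNI. All mice were wild type C57BL/6J males at postnatal week 13, the naïve mice were untreated, and SNI, which cuts some branches of the sciatic nerve and spares another, was done on both sides. Each library pooled the lumbar L3 and L4 ganglia of 2 mice, 8 ganglia in all, so the mice could not be separated and no condition had a replicate. No test between conditions was therefore made. Intervals in square brackets are 95% intervals for counting error alone, exact Poisson for levels, Clopper-Pearson for shares of cells and conditional binomial for ratios, and the spread between mice was not measured.

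Of 11937 barcodes, 9662 were kept, with 500 or more genes detected and no more than 20% of UMIs (unique molecular identifiers, 1 per captured mRNA molecule) from mitochondrial genes. Median depth was 3072 UMIs in naïve cells, 4010.5 at day 7 and 4199 at day 14, and 9 barcode sequences occurred in more than 1 library. Classes were gated on marker genes that included no complement gene. A marker counted as on above 2 times its mean CPM (UMIs of a gene per 1000000 UMIs), a cell needed 3 markers of a class on and a lead of 2 over any other class, and 8823 cells (91.3%) were gated. The macrophage-like class had 71 naïve, 220 day 7 and 269 day 14 cells, with a median of 8 of its markers on against 1 of any other class. Its cells at the limit of the gate numbered 14 of 560. This was less clear for non-myelinating Schwann-like cells, of which 117 of 207 lay at the limit, and for satellite glial-like cells, with 409 of 1824.

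All 9 genes lie on minus strands in the mouse genome (GRCm38) and are annotated as protein coding. C1qb (chr4:136880129-136886187), C1qc (chr4:136889804-136893065) and C1qa (chr4:136895917-136898803) are neighbours. C4b (chr17:34728380-34743882), C2 (chr17:34862604-34898265) and C3 (chr17:57203970-57228136) share a chromosome, and C3ar1 (chr6:122847138-122856161), C5ar1 (chr7:16246743-16259540) and Serping1 (chr2:84765387-84775444) lie apart. Of the exon bases of C2, 42.8% also belong to Gm20547 on the same strand, so C2 counts are uncertain. Of the 91-base words in C4b, 18.6% also occur in C4a, a near copy that had no row and was not analysed here. Reads from these words cannot be assigned to either gene by sequence, and whether they were counted for C4b is not known.

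The promoters below are shown because C1qb, C1qc, C3ar1 and C5ar1 had most of their UMIs in 1 class, while C3 had most of its UMIs outside it. Each is the 250 bases before the start of the RefSeq gene (GRCm38.p6, minus strand, 5′ to 3′), at chr4:136886201-136886450, chr4:136892915-136893164, chr6:122856158-122856407, chr7:16259339-16259588 and chr17:57228137-57228386 in the order printed. RefSeq and the annotation behind the gene positions above (GENCODE) place some starts differently, so 151 of the 250 bases of C1qc, 202 of C5ar1 and 4 of C3ar1 lie inside the gene as given above, and both C5ar1 matches are among these. Capitals mark matches, on either strand, to GGAAGT (an ETS-type motif) or TGANTCA (AP-1).
C1qb: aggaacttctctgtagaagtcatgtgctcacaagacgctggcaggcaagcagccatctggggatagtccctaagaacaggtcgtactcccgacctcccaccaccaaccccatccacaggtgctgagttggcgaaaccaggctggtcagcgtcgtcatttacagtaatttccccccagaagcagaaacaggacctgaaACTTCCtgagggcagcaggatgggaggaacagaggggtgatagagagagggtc
C1qc: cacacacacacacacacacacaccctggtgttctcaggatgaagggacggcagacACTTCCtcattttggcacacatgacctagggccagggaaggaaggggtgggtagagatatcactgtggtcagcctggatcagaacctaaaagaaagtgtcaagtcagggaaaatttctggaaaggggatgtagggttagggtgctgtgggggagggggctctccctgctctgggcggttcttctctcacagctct
C3ar1: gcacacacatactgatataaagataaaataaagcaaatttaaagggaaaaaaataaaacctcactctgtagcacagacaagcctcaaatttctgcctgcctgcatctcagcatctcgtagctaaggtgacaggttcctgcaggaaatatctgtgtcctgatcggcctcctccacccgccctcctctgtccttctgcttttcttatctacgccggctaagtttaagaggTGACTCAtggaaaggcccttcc
C5ar1: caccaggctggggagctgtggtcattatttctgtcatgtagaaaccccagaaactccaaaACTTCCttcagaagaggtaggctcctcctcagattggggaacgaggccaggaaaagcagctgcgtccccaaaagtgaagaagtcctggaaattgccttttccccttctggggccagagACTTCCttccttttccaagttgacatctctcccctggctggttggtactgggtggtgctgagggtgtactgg
C3: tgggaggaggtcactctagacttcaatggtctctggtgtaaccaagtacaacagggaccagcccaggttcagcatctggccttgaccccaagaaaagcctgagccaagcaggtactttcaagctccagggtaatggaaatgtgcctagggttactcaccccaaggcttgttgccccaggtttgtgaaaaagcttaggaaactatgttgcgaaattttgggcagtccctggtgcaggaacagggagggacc
The ETS-type motif occurred in C1qb, C1qc and C5ar1, and in 19.7% of 32851 promoters of the same length. C3ar1 held the AP-1 motif 22 to 16 bases before its start, a motif found in 6.75% of promoters. No promoter of these 5 held the interferon-response motif (GAAA, any 2 bases, GAAA, found in 2.98% of promoters) or TTGCNNCAA (C/EBP-type, 1.74%), and the windows of C1qa, C2, C4b and Serping1 were not analysed here.

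C1q was a transcript of macrophage-like cells. These cells held between 95.9% and 97.8% of all C1qa, C1qb and C1qc UMIs in every library. As a share of the UMIs of macrophage-like cells (CPM within the class), the genes were already near their later level in naïve ganglia. C1qa, which encodes the A chain, stood at 4998 CPM [4680–5331] in the naïve library, 4853 [4724–4984] at day 7 and 4512 [4393–4634] at day 14. The day 7 ratio over naïve was 0.971 [0.905–1.04] and the day 14 ratio was 0.903 [0.842–0.969]. C1qb, the B chain, was at 3694, 3741 and 3171 CPM, and C1qc, the C chain, at 3075, 3295 and 2732 CPM. The ratios of C1qb were 1.01 [0.934–1.10] and 0.858 [0.791–0.933], and those of C1qc were 1.07 [0.981–1.17] and 0.889 [0.812–0.973]. Day 7 thus differed from naïve by no more than counting error for all 3 chains, and day 14 was lower by less than 1.5-fold. Counted per cell without scaling, the mean was 13.0 C1qa UMIs in the naïve library, 24.5 at day 7 and 20.2 at day 14, with a median depth of 2154, 4438 and 3821 UMIs in these cells.

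The macrophage-like share of kept cells was 2.25% in the naïve library, 8.20% at day 7 and 7.03% at day 14. Summed over all kept cells, C1qa was at 44.7 CPM in the naïve library, 277 at day 7 and 174 at day 14. C1qb was at 33.4, 214 and 123 CPM over all cells, and C1qc at 27.8, 189.9 and 106 CPM. Macrophage-like cells held 0.867% of all UMIs of kept cells in the naïve library, 5.58% at day 7 and 3.73% at day 14, a share set by both their number and their depth relative to other cells. The libraries stood in the same order by that share and by the library-wide level of each C1q gene. Since these cells held nearly all C1q UMIs, the library-wide level is nearly that share times the level within the class. The matching order is therefore not a separate result. A share of cells depends on dissociation and capture as well as on the tissue, and these cannot be told apart here.

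**Figure D1:**
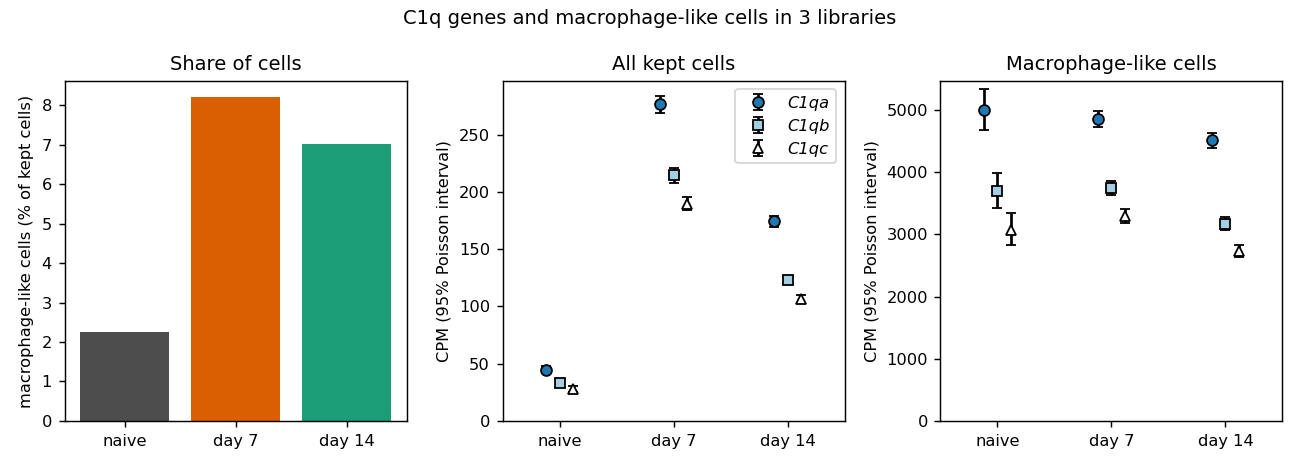
Share of macrophage-like cells among kept cells (left, percent), and CPM of the C1q genes over all kept cells (middle) and within macrophage-like cells (right), in each of 3 libraries, with exact Poisson 95% intervals. C1qa spans 44.7 to 277 CPM over all cells but 4512 to 4998 CPM within the class.

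The 3 chains were found in the same cells. All 3 were detected in 84.5% of macrophage-like cells in the naïve library, 94.5% at day 7 and 94.4% at day 14, and none of them in 4, 4 and 9 cells. After cells with at least 1500 UMIs were thinned to 1500, C1qa was detected in 91.9%, 94.99% and 94.3% of them. Cells with fewer UMIs were left out of this and every thinned share below. Thinned shares thus cover fewer and deeper cells than the unthinned shares beside them. The C1q UMIs of macrophage-like cells were 42.5% C1qa, 31.4% C1qb and 26.1% C1qc in the naïve library, and C1qa made up 40.8% at day 7 and 43.3% at day 14. In all other gated classes together there were 61 such UMIs in the naïve library, 204 at day 7 and 332 at day 14, of which C1qa made up 31.1%, 30.4% and 36.1%.

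Outside macrophage-like cells the C1q genes stayed at low levels. These were higher in the injured libraries in myelinating Schwann-like, satellite glial-like, neuron-like and endothelial-like cells, but not in every class. In fibroblast-like cells C1qb was at 10.9, 7.16 and 3.85 CPM and C1qc at 10.9, 3.58 and 6.42, from 5 or fewer UMIs each. There C1qa was at 7.24, 0 and 10.3 CPM, and mural-like cells had 0 C1qa UMIs in each library. C1qa was at 2.04, 3.19 and 6.52 CPM in myelinating Schwann-like cells and at 0.583, 4.47 and 5.58 CPM in satellite glial-like cells. In satellite glial-like cells C1qa was detected in 0.402% of naïve cells and 4.08% of day 14 cells, and in 0.0434% and 0.923% after thinning. The 6 C1qa UMIs of non-myelinating Schwann-like cells at day 7 all came from 1 cell. The macrophage-like share of cells was higher in the same libraries, and its part in these low levels was not tested.

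Within the macrophage-like class, 8 of 9 members had at least 20 UMIs over both libraries compared, the limit set for a ratio. None of the 8 passed 1.5-fold (on CPM plus 1) at day 7, where 21.1% of all genes tested were higher and 12.2% lower. At day 14, 1 was higher and 1 lower, against 23.8% and 12.7% of all genes. The median log2 ratio of the 8 was -0.01 at day 7 and -0.11 at day 14, and that of all genes was 0.08 and 0.09. The member that was higher at day 14, Serping1, rested on 2 UMIs in the naïve library and 22 at day 14, with a ratio of 1.68 [0.413–14.7].

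The member that was lower was C5ar1, which encodes the receptor for C5a. C5ar1 was at 418 CPM [330–523] in naïve macrophage-like cells, 291 [260–325] at day 7 and 229.9 [204–259] at day 14. The ratios over naïve were 0.696 [0.542–0.905] and 0.550 [0.426–0.717]. The naïve level lay above both others, and its interval did not overlap either. The share of macrophage-like cells with C5ar1 was 47.9%, 57.3% and 50.9%, and after thinning to 1500 UMIs it was 40.1%, 33.2% and 28.6%. Naïve macrophage-like cells had a median of 2154 UMIs against 4438 and 3821. Thinning both evens depth and leaves out cells below 1500 UMIs, and the part of each was not tested. C3ar1, the receptor for C3a, was at 576, 427 and 546 CPM, with ratios of 0.742 [0.600–0.924] and 0.948 [0.771–1.18]. Most UMIs of both receptors came from macrophage-like cells, which held 94.6% to 97.5% of C3ar1 UMIs and 81.9% to 91.3% of C5ar1 UMIs. Neutrophil-like cells, of which there were only 15, 17 and 27, carried C5ar1 at 414, 428 and 548 CPM and had 0 UMIs of C3ar1.

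Macrophage-like cells grouped mainly into a pair of clusters, made without complement genes. One was led by Ccl8, F13a1, Cbr2, Cd163 and Mrc1 (298 cells of the class), and the other by Tmem119, Trem2, Ctss and Ccr2 (211 cells). The clusters were cut from the same cells, so their differences are a description. C1qa was at 6015 CPM in the Ccl8-led and 4120.0 CPM in the Tmem119-led cluster. C4b was at 683 and 176 CPM, and C5ar1 at 411 and 142 CPM, while C3ar1 was at 591 and 499.7 CPM. In naïve, day 7 and day 14 cells of the Ccl8-led cluster C5ar1 was at 557, 454 and 339 CPM, and in the Tmem119-led cluster 308, 110.0 and 151 CPM, so the naïve library was highest in both. The Ccl8-led cluster made up 56.3%, 55.9% and 50.2% of the class. A separate small cluster, led by Ccl8 and Pla2g2d, held 0 of 71 naïve, 12 of 220 day 7 and 9 of 269 day 14 cells and is not part of these values. A further 27 cells of the class lay in a cluster named dendritic, where C1qa was at 138 CPM.

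C4b encodes C4, which is cleaved by activated C1. In naïve ganglia its highest level among the 8 classes with 30 or more cells in each library was in non-myelinating Schwann-like cells. There it was at 1378 CPM [1222–1550], 824 [696–970] at day 7 and 999 [884–1124] at day 14, with ratios of 0.598 [0.486–0.733] and 0.724 [0.611–0.859]. Both injured libraries were below the naïve one. Of 9 members only C4b and Serping1 reached 20 UMIs in this class, and 1 of these 2 was lower at day 7, where 19.6% of all genes were lower and 18.4% higher. At day 14 neither passed, against 14.0% of genes higher and 15.1% lower. The day 7 value depended on how the class was drawn. With clusters in place of the gate its log2 ratio was -0.086 instead of -0.74, and among gated cells of the Scn7a-led cluster alone C4b was at 1757, 1537 and 1255 CPM. At day 7 that cluster held 34 of the 40 cells and 133 of 145 C4b UMIs. A cluster led by Cxcl10 held 3 more cells and 10 UMIs, at 1415 CPM. The few day 7 cells outside these clusters added many UMIs but little C4b, which lowered the class level. Under a stricter cell filter (1000 genes, 10% mitochondrial UMIs), with the gate drawn again on the cells left, C4b was at 423, 209 and 107 CPM in 35, 13 and 26 cells, of which 30, 8 and 17 had been in the class before. With the first gate kept and the same filter it was at 2043, 1718 and 951 CPM in 40, 17 and 20 cells. Day 14 was lower than naïve by more than 1.5-fold under both, but the redrawn class was a different mix of cells. It held 371270, 253940 and 857671 UMIs, against 87622, 43666 and 86215 with the first gate kept. Cells new to the class thus held most of its UMIs, and its levels are mainly theirs.

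In satellite glial-like cells, the glia that wrap neuron bodies, C4b was at 102 CPM [93.4–111] in the naïve library, 119.5 [109–131] at day 7 and 212 [200.01–225] at day 14. The ratios were 1.17 [1.03–1.33] and 2.08 [1.88–2.32]. C4b was detected in 33.6%, 46.3% and 61.0% of these cells, and in 13.0%, 15.7% and 26.2% after thinning. The UMIs were spread over many cells, the 5 richest holding 10.48%, 11.2% and 5.53%. The day 14 level was the highest in each of the 5 clusters, with intervals that overlapped those of day 7 in 2 of them. In the Egr3-led cluster C4b was at 53.4, 112 and 197 CPM, and in the Hes5-led cluster at 100.4, 107 and 205 CPM. A cluster led by Cxcl10 and Isg15, which are induced by interferon, was at 240.0, 251 and 345 CPM and made up 15.5% of the class in the naïve library, 6.47% at day 7 and 2.28% at day 14. Without it C4b was at 76.6, 112 and 209.7 CPM, with ratios of 1.46 [1.26–1.69] and 2.74 [2.42–3.11]. The direction did not hold under the stricter cell filter with the gate drawn again, which gave 143, 21 and 19 cells, of which 132, 13 and 9 had been in the class before, with C4b at 101, 79.7 and 81.4 CPM. With the first gate kept, the filter left 133, 14 and 10 cells with C4b at 100.2, 117 and 150.5 CPM, and in both cases the intervals were wide and overlapped. The redrawn class held 962334, 288612 and 356053 UMIs, against 908148, 127884 and 66456 with the first gate kept. In the injured libraries cells new to the class thus held most of the redrawn UMIs. The median mitochondrial share of the class was 13.0%, 14.8% and 15.4% before the filter.

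Myelinating Schwann-like cells held less C4b. It was at 25.5 CPM [20.8–31.0] in the naïve library, 44.2 [38.4–50.6] at day 7 and 50.8 [45.5–56.5] at day 14. The ratios were 1.73 [1.36–2.22] and 1.99 [1.59–2.51], and both injured libraries lay above the naïve one without overlap of the intervals. C4b was found in 5.61%, 12.6% and 14.8% of cells, or 3.42%, 6.01% and 7.34% after thinning. Here too a cluster led by interferon-response genes had the highest naïve level, 96.0 CPM, with 78.9 at day 7 and 131 at day 14, and it made up 7.47%, 2.57% and 2.24% of the class. Without it C4b was at 14.6, 42.6 and 49.0 CPM, with ratios of 2.91 [2.13–4.04] and 3.35 [2.49–4.59].

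**Figure D2:**
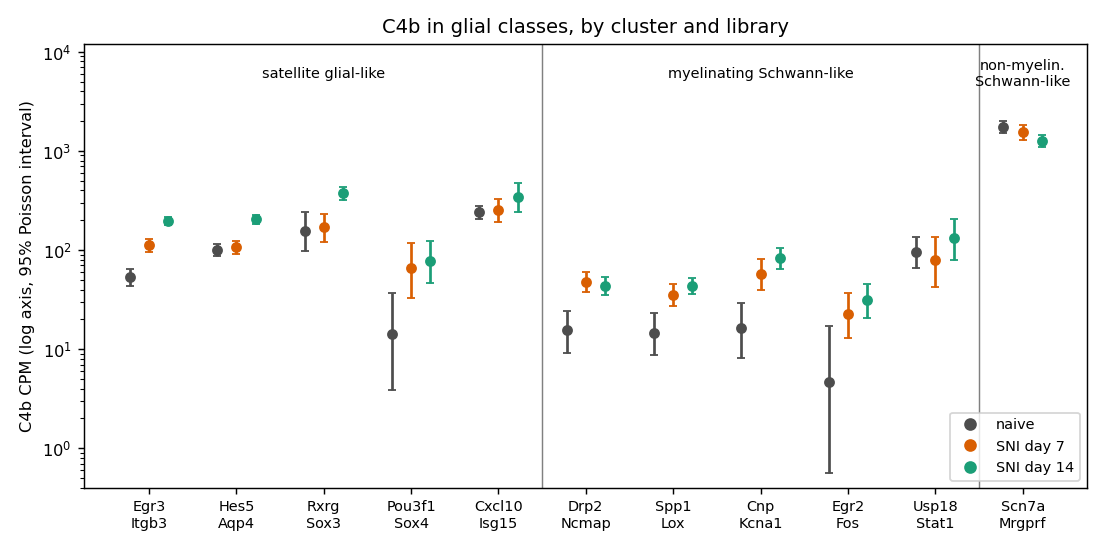
C4b CPM (log axis, exact Poisson 95% intervals) in glial cells by cluster and library, each cluster named by a pair of its leading genes. In the Drp2-led myelinating cluster it was 15.5, 47.8 and 43.8 CPM in the naïve, day 7 and day 14 libraries.

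Counts of members in the glial classes rested on few genes. In satellite glial-like cells 4 of 9 members reached 20 UMIs at day 7 and 2, both C1q genes, were at least 1.5-fold higher, with 3.38% of all genes higher and 2.64% lower. At day 14 it was 5 of 5 higher, beside 5.59% of all genes higher and 3.25% lower, but C1qa, C1qb and C1qc passed the UMI limit through the injured library and their levels were 5.58 CPM or less. In myelinating Schwann-like cells 3 of 5 were higher at day 7 (of all genes, 3.03% higher and 2.68% lower) and 4 of 5 at day 14 (4.4% and 3.26%), again with C1q genes among them. The C1q ratios of that class at day 7 were within counting error. The other members tested in both classes were C4b and Serping1.

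In macrophage-like cells C4b was at 364, 497 and 369 CPM, with ratios of 1.37 [1.06–1.79] and 1.01 [0.783–1.33]. The day 7 level was the highest, and the day 14 level lay within counting error of the naïve one. Under the stricter cell filter the levels were 249.9, 526 and 371 CPM. The day 7 peak was seen in the Ccl8-led cluster, in which C4b was at 477, 817 and 587 CPM, whereas the Tmem119-led cluster was at 267, 155 and 185 CPM. In neuron-like cells C4b was at 4.69, 8.18 and 11.03 CPM. Under the stricter filter it was at 3.52, 2.71 and 4.78 CPM from 10, 7 and 25 UMIs with the gate drawn again, where day 7 was below naïve, and at 4.12, 8.57 and 10.2 CPM with the first gate kept. In endothelial-like cells it was at 6.07, 18.3 and 7.42 CPM, of which 1 day 7 cell held 13 of 31 UMIs. Mural-like cells, as a low reference, had C4b at 6.79, 1.96 and 7.88 CPM, in 2.34%, 0.971% and 3.39% of cells.

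C3 is the central component, cleaved by every activation pathway. Its largest gated source in each library was the fibroblast-like class, which held 36.1% of C3 UMIs in the naïve library, 40.4% at day 7 and 78.1% at day 14. Within that class C3 was at 47.0 CPM [25.04–80.4] in 84 naïve cells, 143 [102–195] in 68 day 7 cells and 367 [326–413] in 168 day 14 cells. The ratios over naïve were 3.05 [1.60–6.21] and 7.81 [4.50–14.9]. The order of the libraries was naïve, day 7, day 14, with no overlap of intervals. C3 was detected in 7.14% [2.67–14.9], 25% [15.3–37.0] and 28.6% [21.9–36.0] of fibroblast-like cells. After thinning it was detected in 6.34%, 14.1% and 21.9% of the 71, 63 and 153 cells deep enough. The naïve level rested on 13 UMIs, of which the 5 richest cells held 92.3%, and those cells held 50% of 40 UMIs at day 7 and 32.2% of 286 at day 14. Counting each cell once, the day 14 log2 ratio was 1.51 instead of 2.97. Under the stricter cell filter C3 was at 89.8 [46.4–157], 139.6 [87.5–211] and 557 [483–639] CPM. The naïve and day 7 intervals then overlapped, as they also did with the first gate kept.

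C3 and C2 differed between the fibroblast-like clusters. The larger, led by Ccl11, Lum and Mmp2 (256 cells), had C3 at 82.0, 182 and 466 CPM in the naïve, day 7 and day 14 libraries. The smaller, led by Lypd2, Igfbp6 and Stra6 (64 cells), had 0 C3 UMIs in the naïve and day 7 libraries and 23.1 CPM at day 14. C2, the protease subunit that joins C4b in the C3 convertase, had the reverse order, at 251 CPM in the smaller cluster and 47.8 in the larger. Over the whole class C2 was at 116, 68.1 and 108 CPM, with ratios of 0.588 [0.315–1.07] and 0.932 [0.614–1.45], both within counting error. Under the stricter cell filter C2 was at 29.9, 50.8 and 41.0 CPM from 4, 8 and 15 UMIs, so that day 7 was above naïve. C4b in fibroblast-like cells was at 61.5, 114.6 and 135 CPM, with ratios of 1.86 [1.005–3.58] and 2.19 [1.31–3.91].

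Of 9 members 4 reached 20 UMIs in fibroblast-like cells. At day 7, C3 and C4b were past 1.5-fold higher and C2 lower (a direction that turned under the stricter filter), where 11.8% of all genes were higher and 15.4% lower. At day 14, C3 and C4b were higher and none lower, where 12.9% were higher and 13.3% lower. Outside fibroblasts C3 was highest in neutrophil-like cells, at 318, 357 and 267 CPM from 10, 20 and 18 UMIs. In the naïve [153–585] and day 7 [218–551] libraries this lay above the fibroblast-like level, without overlap of intervals. At day 14 the fibroblast-like level was the higher, but it lay within the neutrophil-like interval [158–421]. In macrophage-like cells it was at 21.7, 28.8 and 24.1 CPM. Mural-like cells had 0 C3 UMIs in each library, and a limit of 3 counts per library stands at 6.79, 5.88 and 3.94 CPM.

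**Figure D3:**
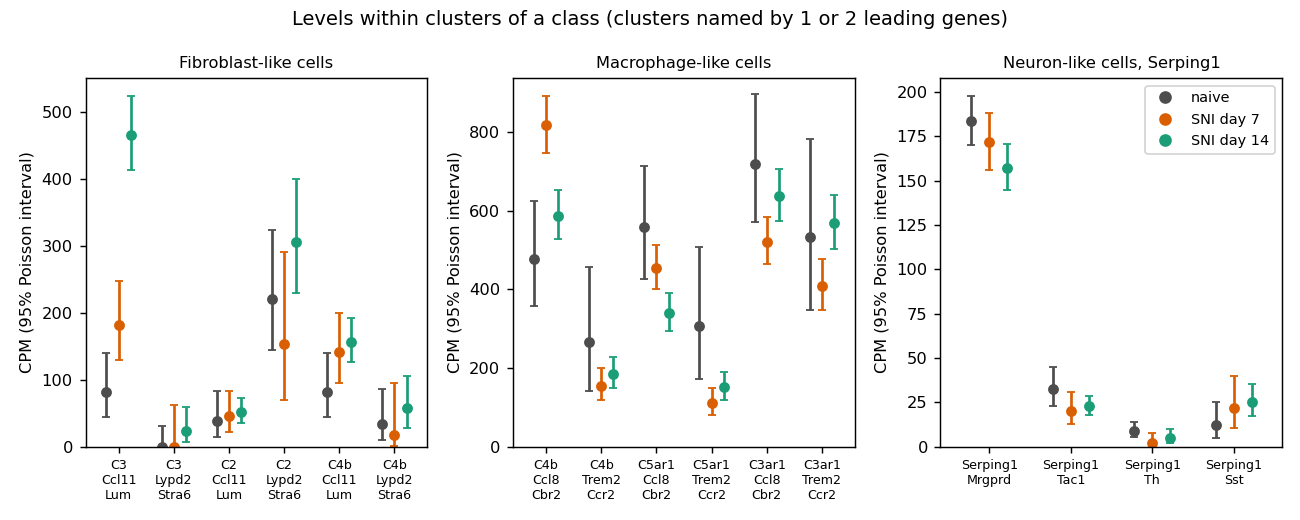
CPM with exact Poisson 95% intervals in clusters of fibroblast-like, macrophage-like and neuron-like cells, by library, with each cluster named by 1 or 2 leading genes. C3 in the Ccl11-led cluster reached 466 CPM at day 14, and Serping1 in the Mrgprd-led neurons was between 157 and 184 CPM.

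Serping1 was highest in fibroblast-like cells and differed little there. It was at 1679 CPM [1529–1839] in the naïve library, 1573 [1429–1727] at day 7 and 1727 [1636–1822] at day 14, in 94.0% to 98.5% of cells. The ratios were 0.937 [0.820–1.07] and 1.03 [0.925–1.15]. In mural-like cells, the pericytes and smooth muscle of vessels, Serping1 was at 362, 351 and 419 CPM, with ratios of 0.969 [0.778–1.21] and 1.16 [0.953–1.41]. It was the only member with 20 UMIs in that class and passed 1.5-fold in neither comparison. The shares of all genes higher and lower were 9.3% and 9.88% at day 7, and 11.4% and 9.15% at day 14. Non-myelinating Schwann-like cells had 266, 216 and 251 CPM, and myelinating Schwann-like cells 16.1, 13.0 and 14.7 CPM, all with ratios within counting error. In satellite glial-like cells Serping1 was at 38.6, 45.0 and 61.2 CPM, with ratios of 1.16 [0.947–1.43] and 1.58 [1.32–1.90], and under the stricter cell filter at 39.5, 17.3 and 22.5 CPM from 38, 5 and 8 UMIs, or 37.4, 31.3 and 15.05 CPM from 34, 4 and 1 with the first gate kept. Macrophage-like cells were at 10.9, 10.8 and 18.3 CPM and endothelial-like cells at 4.97, 9.47 and 10.2 CPM.

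Neuron-like cells held 44.1%, 34.8% and 23.1% of all Serping1 UMIs. Their level was 98.8 CPM [92.1–106] in the naïve library, 95.5 [87.6–104] at day 7 and 64.5 [59.9–69.4] at day 14, with ratios of 0.966 [0.865–1.08] and 0.653 [0.590–0.723]. The transcript was concentrated in the cluster led by Mrgprd, a receptor of non-peptidergic nociceptors, at 171 CPM and in 95.3% of its 85 cells. It was at 24.4 CPM in the cluster led by Zcchc12 and Tac1 and 6.41 CPM in the cluster led by C1ql4 and Th. Within the Mrgprd-led cluster Serping1 was at 184, 171 and 157 CPM, and this cluster made up 32.2%, 15.6% and 19.05% of neuron-like cells. The day 7 neurons had a median of 2654 UMIs against 72275 and 78022, and 94 of 154 lay in a shallow cluster with Atf3 and Sprr1a among its leading genes. Without that cluster Serping1 was at 98.7, 91.1 and 64.6 CPM.

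C2 in neuron-like cells was at 1.98, 3.02 and 3.71 CPM. Most of it came from 26 cells of a cluster led by Nppb, Il31ra and Sst, genes of neurons that signal itch, where C2 was at 21.1 CPM and in 69.2% of cells. The level there was 19.04, 21.6 and 21.8 CPM in the naïve, day 7 and day 14 libraries, from 7, 4 and 15 cells. Of 9 members 6 reached 20 UMIs in neuron-like cells. At day 7, 4 were higher and 0 lower, with 5.58% of all genes higher and 3.44% lower, and at day 14, 5 were higher and 1, Serping1, lower, with 11.0% higher and 3.14% lower. C1qa, C1qb and C1qc were among the higher ones at both times but had 5, 5 and 3 UMIs in the naïve library and passed the UMI limit through the injured libraries, so these counts say little about the members. Apart from Serping1 all were at 11.03 CPM or less.

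**Figure D4:**
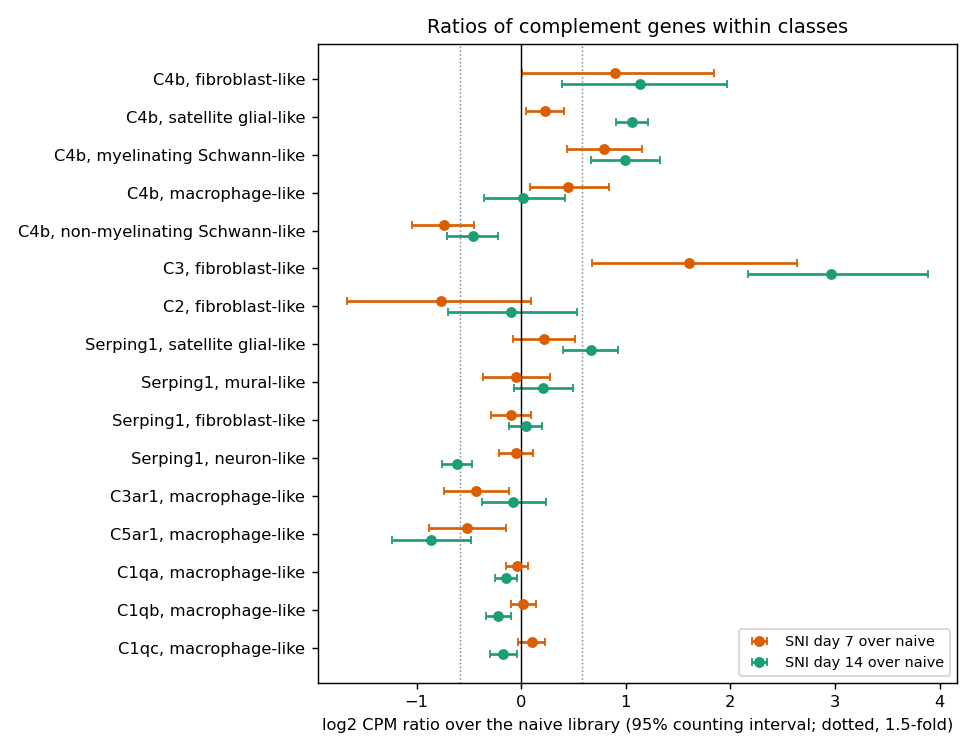
The log2 CPM ratio over the naïve library of complement genes within classes, with 95% counting intervals and dotted lines at 1.5-fold; both injured libraries are set against the same naïve library. C3 in fibroblast-like cells is at 1.61 and 2.97, and the C1q genes in macrophage-like cells lie between -0.22 and 0.10.

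**Figure D5:**
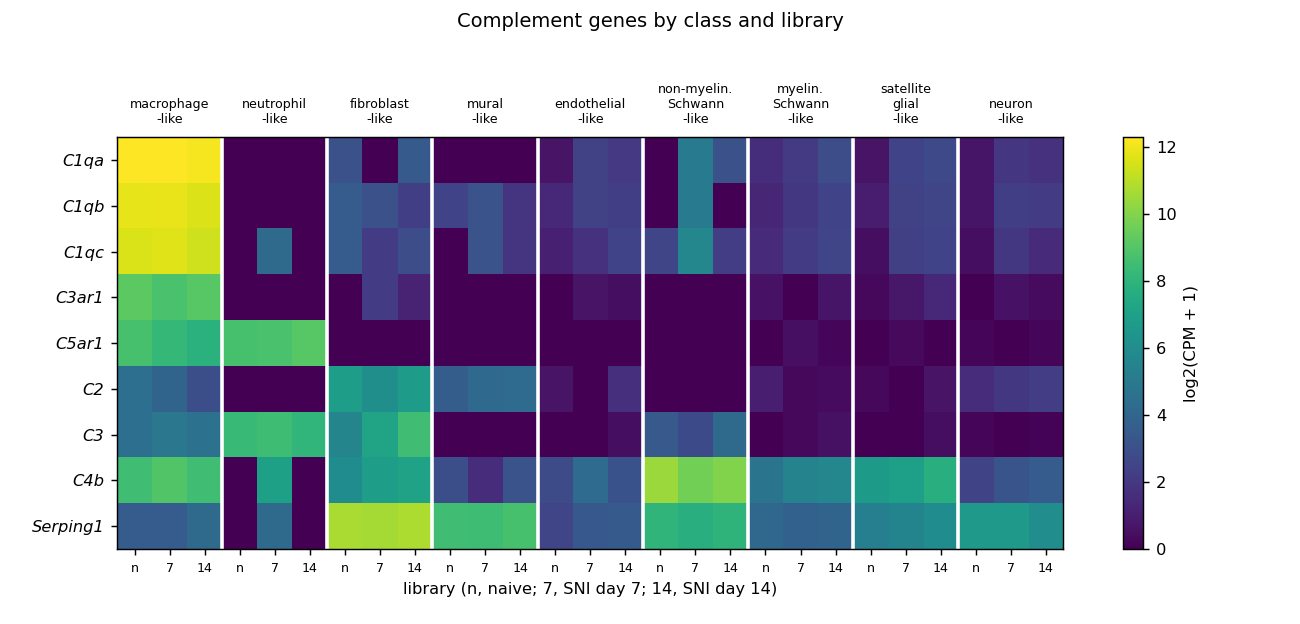
Level of the 9 complement genes as log2(CPM + 1), by class and library (columns). The C1q genes and C3ar1 are high in macrophage-like cells, C4b in non-myelinating Schwann-like cells and Serping1 in fibroblast-like cells, where it is between 1573 and 1727 CPM.

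The rest of the pathway was followed in 38 other complement genes with a row. In macrophage-like cells 9 reached 20 UMIs, and Itgam and Cfp (properdin, which stabilises the C3 convertase) were among those with the highest CPM. Itgam, the alpha chain of complement receptor 3, had ratios of 1.81 [1.27–2.65] at day 7 and 1.57 [1.10–2.30] at day 14. At day 14 Cfp was at 123 CPM against 261 in the naïve library, a ratio of 0.471 [0.338–0.667], and Itgb2, the beta chain of the same receptor, had a ratio of 0.642 [0.451–0.936]. In these cells 2 of the 9 were past 1.5-fold higher and 0 lower at day 7, and 2 higher and 3 lower at day 14, beside the 21.1% and 12.2% of all genes at day 7 and 23.8% and 12.7% at day 14 given above.

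In fibroblast-like cells C1s1 (a protease of C1) and Clu (clusterin, a regulator of the terminal pathway) were among the highest of the list. Clu was at 170.0, 189.9 and 93.8 CPM, with a day 14 ratio of 0.552 [0.377–0.814]. In mural-like cells Vtn (vitronectin) and C1s1 were among the highest, and Colec12, a collectin, was higher at day 14 with a ratio of 2.53 [1.30–5.40]. It was 1 of 8 genes tested there, where 11.4% of all genes were higher at day 14.

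Among the other complement genes, Cd59a, which blocks the membrane attack complex, had the highest CPM of the list in myelinating Schwann-like cells (404, 436.5 and 429 CPM), non-myelinating Schwann-like cells (669.5, 642 and 773 CPM) and satellite glial-like cells (207, 253 and 264 CPM). Next came Cd55, which dissociates convertases, and Cr1l in myelinating Schwann-like cells, and Csmd1 and Cr1l in the other 2 classes. In satellite glial-like cells C1s1 had ratios of 2.42 [1.019–6.16] and 3.08 [1.41–7.42] and Clu of 1.88 [1.30–2.74] and 1.57 [1.09–2.28]. Cfp at day 7 (0.618) also passed 1.5-fold. In myelinating Schwann-like cells Cd46 (0.456) and Clu (2.63) passed at day 7 and Cd59b (0.546) at day 14. Cr1l at day 7 (0.272) and Csmd1 at day 14 (1.82) passed in non-myelinating Schwann-like cells.

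In neuron-like cells Cd55 led at 605, 584 and 422 CPM, followed by Cd59a and Clu. Masp1, a protease of the lectin pathway, had a day 14 ratio of 2.13 [1.59–2.88] and Csmd2 of 1.97 [1.52–2.57], and Cfp was lower at 0.510 and 0.566. In endothelial-like cells, where Cd59a, Clu and Cr1l led, Cd59a had ratios of 1.64 [1.44–1.87] and 1.61 [1.43–1.82] and Vtn of 6.79 and 3.84. Of the members, C4b and Serping1 reached 20 UMIs there. Both were past 1.5-fold higher at day 7 and 1 of them at day 14. Of all genes 6.14% were higher and 5.38% lower at day 7, and 7.14% and 5.97% at day 14. The counting interval excluded 1 for C4b alone at day 7 and for neither member at day 14. Serping1 had 9 UMIs in the naïve library and 16 at day 7, of which 1 cell held 11.

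Over 24 points, the 8 classes in 3 libraries, the pattern of C1qa was most like that of Ptpn6, Cd48, Fcrls, Fcgr3 and Cybb (Pearson r of log2(CPM + 1) from 0.970 to 0.974 among 11930 genes). For C3 these were Colgalt1 (0.912), Htra3, Tgfbi, Tmed3 and Aldh1a2, for C4b Gas7 (0.919), Abca1, Marcks, Cyp4v3 and Jun, and for Serping1 Hoxc9 (0.937), Loxl2, Hoxc8, Dock5 and Hoxc10. Points of a library share that library, so these values are descriptions.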

How the data were processed

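Per the file headers and the submitters' processing notes, the authors made the matrices with Cell Ranger 3.0.2 on mm10 and deposited UMI counts per gene and barcode, not normalized, for called cells only. The annotation, the strand setting and any equalisation of depth are not given in the sources used here. Libraries held 23107376, 22343246 and 36550911 UMIs (naïve, day 7, day 14), and an interval or a limit of 3 counts covers counting error only.

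Counts were summed over the cells of a gated class and divided by all UMIs of those cells. Clusters (scanpy 1.11.5, leidenalg 0.10.2, 2000 variable genes without complement genes, 30 components, 15 neighbours, resolution 1) were named from the same markers, and splitting classes by cluster was chosen after the data were seen. Alternatives covered the cell filter, doublets, class definition, scaling, depth and weight of cells. Scrublet called 29, 32 and 29 cells, which were kept. All 9 members were named; other complement genes were named if among the 3 highest in a class, or past 1.5-fold with an interval that excluded 1, apart from an item that is not reported here. The steps were tested on simulated data. The members and lists were chosen with earlier results of these data known. With 1 library per condition no test was made.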

Additional observations from a re-analysis of the deposited data

Results flagged for a closer look

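C4b stood above the naïve level in some classes and below it in another, with counting intervals that excluded 1 on either side, and the difference between classes was not tested. At day 7 its log2 CPM ratio over naïve was 0.45 in macrophage-like, 0.79 in myelinating Schwann-like, 0.23 in satellite glial-like and 0.90 in fibroblast-like cells, and -0.74 in non-myelinating Schwann-like cells. The last value depended on how the class was drawn, as described above. At day 14 it was 0.99 in myelinating Schwann-like, 1.06 in satellite glial-like and 1.13 in fibroblast-like cells, and -0.47 in non-myelinating Schwann-like cells. Serping1 at day 14 was at 0.66 in satellite glial-like and -0.61 in neuron-like cells, also not tested. A minimum of 20 CPM, chosen after the data were seen, limited which classes were compared.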

How the results depend on the processing

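No paired analysis was possible because the 3 conditions were measured in a single library each, and no replicate could be left out. Of the log2 CPM ratios of members under all alternatives, 262 of the main ones stayed within the counting interval, 32 moved and 4 reversed. Of the reversals 3 came when 1000 genes or more and no more than 10% of UMIs from mitochondrial genes were required and the gate was drawn again, which gave 143, 21 and 19 satellite glial-like cells: C4b was then at -0.34 (day 7) and -0.31 (day 14), and Serping1 at -0.81 (day 14). Serping1 at day 7, within counting error before, was at -1.19. In the injured libraries most UMIs of the redrawn satellite glial-like and non-myelinating Schwann-like classes came from cells new to the class. Under that filter C4b was also at 1.07 and 0.57 in macrophage-like, -1.98 (day 14) in non-myelinating Schwann-like and -0.38 (day 7) in neuron-like cells, and in fibroblast-like cells at day 7 C2 was at 0.76 and C3 at 0.64. With clusters in place of the gate, non-myelinating Schwann-like C4b was at -0.086 and -0.81 and Serping1 at -0.62 (day 14), and satellite glial-like C4b at 0.87 (day 14). With no cell filter these C4b values were -0.29, -0.76 and 0.91. With the mean over cells, C1qa in macrophage-like cells was at 0.12 (day 7), C4b in non-myelinating Schwann-like cells at -0.21 (day 7) and Serping1 in fibroblast-like cells at 0.20 (day 14). With median-of-ratios size factors C1qa in macrophage-like cells was at -0.037 (day 14). With no minimum number of UMIs, the genes past 1.5-fold higher and lower were 5339 and 2379 (day 7) and 5889 and 2211 (day 14) in macrophage-like cells instead of 1546 and 897, and 1859 and 993. In fibroblast-like cells they were 3127 and 3418, and 3978 and 2875, instead of 606 and 791, and 974 and 1001.

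The remaining alternatives were chosen after the data were seen. With the same filter but the first gate kept, Serping1 in satellite glial-like cells was at -0.26 and, reversed, at -1.32 (day 14, 1 UMI), and C4b there did not reverse (0.59 at day 14). C4b was at 1.04 and 0.57 in macrophage-like and -0.25 and -1.10 in non-myelinating Schwann-like cells, and in fibroblast-like cells at day 7 C2 was at 0.70 and C3 at 0.59. C3 in fibroblast-like cells was at 1.51 (day 14) with each cell counted once, and at 4.32 and 6.08 without the 5 cells with most UMIs, which left the naïve library 1 UMI. Without the interferon-led clusters C4b was at 0.54 and 1.45 in satellite glial-like and 1.54 and 1.75 in myelinating Schwann-like cells. The cause of these differences was not tested beyond the numbers of cells and genes given.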
